A study of Mus musculus with 23 samples.

Results

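Mitosis genes encode the kinases, motors and chromosome proteins that a cell uses to divide its copied chromosomes between daughter cells. The set described here held 46 genes, a list given by gene name, out of 23985 genes listed in all 3 expression tables of the study. All 46 were listed in each table. They fell into 9 roles: cyclins and entry kinases (8 genes), Aurora kinases and the chromosomal passenger complex (5), the spindle checkpoint (5), anaphase (4), centromere and kinetochore (5), kinesin motors (7), other spindle proteins (4), cytokinesis (4), and chromatin, transcription and others (4).

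The study sequenced polyA RNA from about 2000 sorted mouse cells in each of 23 libraries. The normal cells came from C57BL6J mammary gland: stem cells of the fetal gland at embryonic day 18 (fMaSC), and, from adults, basal cells, luminal progenitors (progenitors below) and mature luminal cells, with 2 libraries each. PY230 cells, a line from a tumour of an MMTV-PyMT mouse, in which the MMTV promoter drives the polyoma middle T antigen, were transplanted into C57BL6J mice, and the tumours gave SOX10-high luminal, SOX10-low luminal and SOX10-high basal cells, with 2 libraries each. Spontaneous tumours of FVB mice with the C3-1-TAg transgene, in which the C3(1) promoter drives the SV40 T antigen, gave SOX10-high cells (5 libraries) and SOX10-low cells (4 libraries), both titled basal. Sox10 encodes a transcription factor of the fetal mammary and neural crest lineages. The labels tie no library to an animal or a tumour, PY230 is 1 line, and the labels do not state the sort gates. The series' design text calls the replicates biological, and the p-values below measure only the spread between these samples.

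Division starts when cyclin B and the kinase CDK1 become active, and it ends after the checkpoint proteins release the anaphase-promoting complex, which then marks cyclin B and securin for destruction. Most of these genes are transcribed in the G2 phase and mitosis and are silent in resting cells, so that their RNA is widely read as a sign of dividing cells in a tissue. The CCAAT box and the cell cycle genes homology region (CHR) are short promoter elements known from many of them.

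Promoter sequence shows what the set shares that its names did not use, and the 6 stretches below, chosen after the values were seen, belong to genes on which the results turn. RefSeq promoters (build GRCm38.p6, while the expression values were made on mm9) were matched by symbol for 39 of the 46 genes. Each stretch lies upstream of the RefSeq start and holds no exon of the GENCODE annotation, is written 5′ to 3′ on the strand of the gene, and has its motif matches in capitals (CCAAT or ATTGG for the CCAAT box, TTTGAA or TTTAAA for the CHR, with both strands searched).
Cdk1, chr10:69352939-69353088, minus strand: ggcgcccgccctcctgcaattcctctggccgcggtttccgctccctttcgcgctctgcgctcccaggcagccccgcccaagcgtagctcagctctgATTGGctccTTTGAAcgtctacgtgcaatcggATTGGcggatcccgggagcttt
Ccnb2, chr9:70421555-70421704, minus strand: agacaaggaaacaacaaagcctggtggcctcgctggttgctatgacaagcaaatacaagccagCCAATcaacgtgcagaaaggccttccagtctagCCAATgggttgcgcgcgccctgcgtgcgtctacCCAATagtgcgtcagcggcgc
Aurka, chr2:172370571-172370680, minus strand: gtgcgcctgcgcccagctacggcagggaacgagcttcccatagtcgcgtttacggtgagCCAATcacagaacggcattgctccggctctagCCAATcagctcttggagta
Cdc20, chr4:118437353-118437502, minus strand: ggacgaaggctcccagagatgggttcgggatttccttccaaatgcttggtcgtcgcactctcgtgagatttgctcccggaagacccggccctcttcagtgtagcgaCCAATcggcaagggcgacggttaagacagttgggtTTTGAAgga
Ube2c, chr2:164769748-164769897, plus strand: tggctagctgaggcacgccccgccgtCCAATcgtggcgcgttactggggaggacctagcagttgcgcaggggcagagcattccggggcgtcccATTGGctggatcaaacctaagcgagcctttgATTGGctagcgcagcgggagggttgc
Mad2l1, chr6:66535071-66535220, plus strand: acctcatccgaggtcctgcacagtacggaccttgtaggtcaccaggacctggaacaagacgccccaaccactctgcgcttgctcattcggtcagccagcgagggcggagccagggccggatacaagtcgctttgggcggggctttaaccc

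Within 250 bases before the start, the CCAAT box was present in 30 of the 39 genes (76.9%) and in 37.5% of all 27018 mouse genes with a promoter in the RefSeq table, where a gene counts if any of its promoters holds the motif. A CHR match was present in 18 of the 39 (46.2%) against 28.1% of all these genes, and both motifs in 16 of the 39 (41.0%) against 10.1%. Cdk1, Cdc20 and Ube2c were among the genes with both. The 7 genes with neither motif in that window were Anln, Kif20b, Mad2l1, Ndc80, Nuf2, Nusap1 and Pttg1. A match is a description of letters and not a binding site, and the windows do not reach beyond 250 bases.

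Levels below are RPKM, reads scaled to transcript length and to the mapped reads of a library, as the authors deposited them, except that a constant of 2 was taken off the C3-1-TAg values above 0. The 3 tables were made separately, so groups were tested only within a table. RPKM keeps no read number, so depth is unknown and no counting error can be given. The 2 normal basal libraries differed by a median absolute log2 of 0.471 over all genes tested, against 0.130 to 0.251 in the other normal groups. Basal markers summed to 1718 and 805 RPKM in them. In PY230 tumours, as deviations from the mean of the table, SOX10-high luminal library 2 correlated at 0.32 and 0.28 with the SOX10-low luminal libraries. For SOX10-high luminal library 1 these values were -0.19 and -0.08. The libraries most alike across labels were from C3-1-TAg tumours. Over all genes, as deviations from the mean of the 9 libraries, SOX10-high library 1 and SOX10-low library 2 correlated at 0.82, and SOX10-high library 2 and SOX10-low library 3 at 0.68, whereas the 4 pairs with the same number had values between -0.42 and -0.04. SOX10-low library 1 held 1082 RPKM of 7 immune marker genes in sum, and the other 8 libraries held 9.12 to 103. Sox10 itself was at 66.9 to 101 RPKM in SOX10-high and 11.01 to 13.6 in SOX10-low PY230 luminal cells, at 72.0 to 78.3 in PY230 basal cells, and at 91.9 to 164 against 2.10 to 40.9 in the C3-1-TAg fractions. Of 6 basal markers, 1 was at 1 RPKM or more in every C3-1-TAg library, although the libraries are titled basal.

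**Figure D1:**
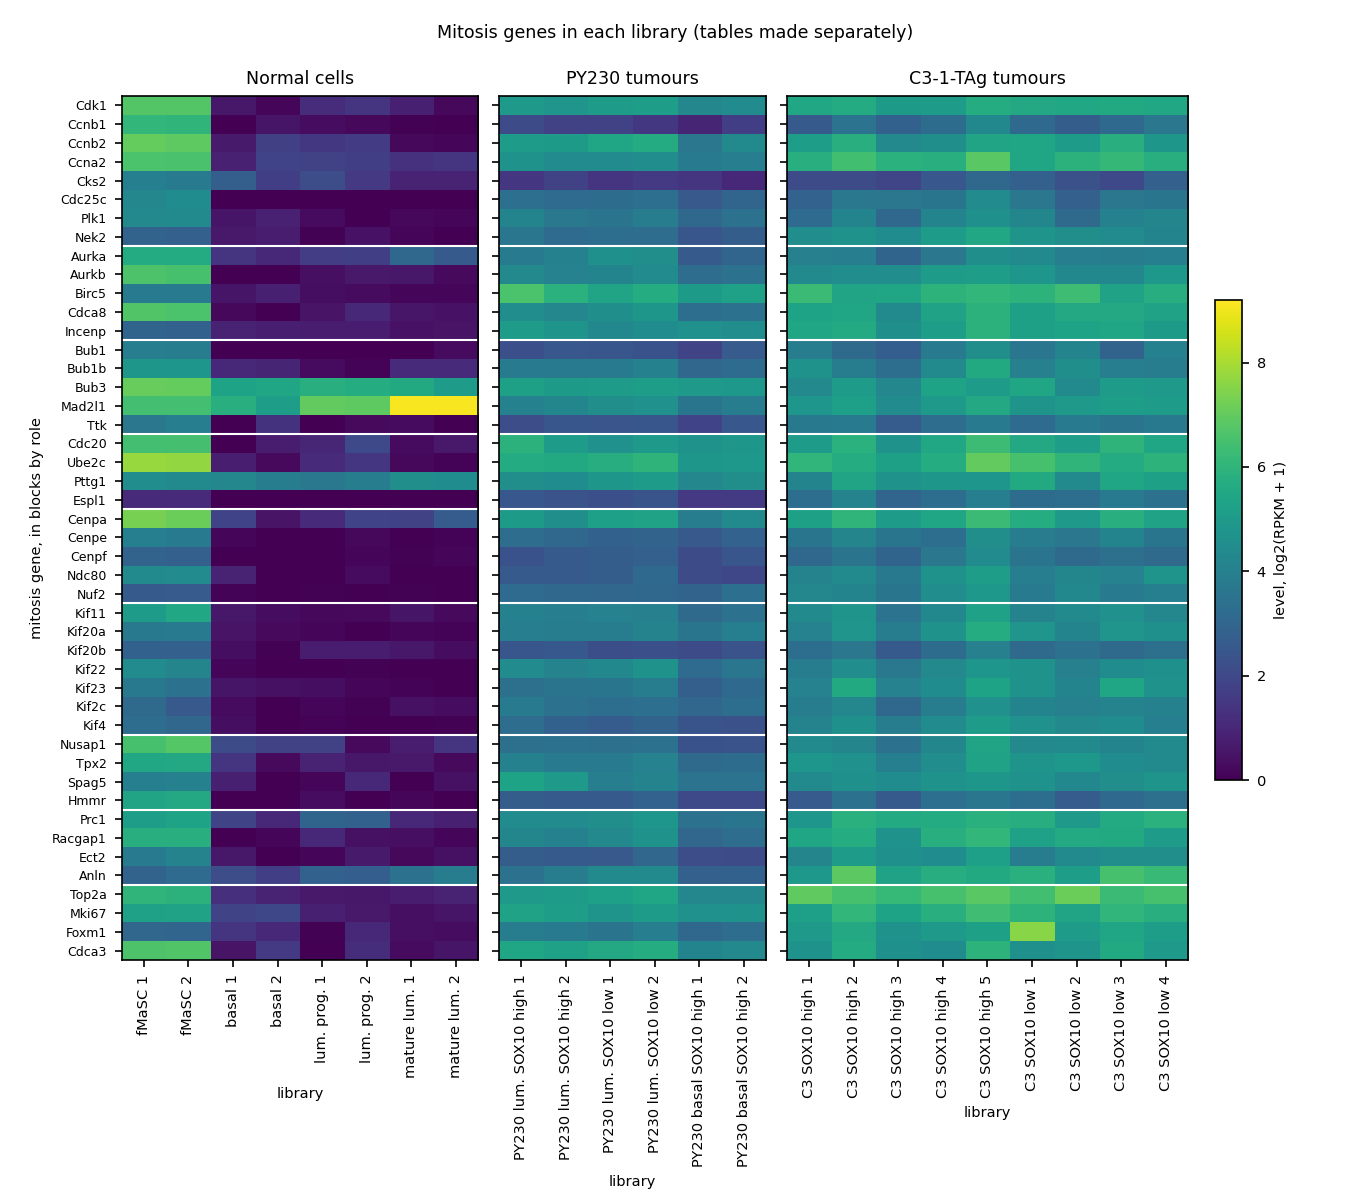
Level of each of the 46 mitosis genes (rows, in blocks by role) in each of the 23 libraries (columns), as log2(RPKM + 1), in 3 panels for tables that were made separately. The 2 fMaSC columns are bright for most genes (Espl1, at 1.12 and 1.22 RPKM, is the darkest), the 6 adult normal columns are dark except for a few rows such as Mad2l1, Bub3 and Pttg1, and all tumour columns hold the set.

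The first comparisons set the fetal stem cells against each adult population. The 46 genes added up to 2128 ± 16.9 RPKM in fMaSC (SD, n = 2), 133 ± 21.6 in basal cells, 227 ± 3.07 in progenitors and 644 ± 11.5 in mature luminal cells. Without Mad2l1, Bub3 and Pttg1, chosen after their values were seen, the sums were 1898 and 1879 RPKM in fMaSC and 29.2 to 40.1 in the 6 adult libraries. In these sorted pools fewer dividing cells and less RNA per dividing cell cannot be told apart.

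Every gene of the set was at 1 RPKM or more in both fMaSC libraries. That held for 10 genes in basal cells, 12 in progenitors and 8 in mature luminal cells, whereas 28, 27 and 36 genes were under 1 RPKM in both libraries of those groups. Tests used limma on log2(RPKM + 1), which understates the change of low genes, and called a gene at a Benjamini-Hochberg adjusted p under 0.05. A gene was tested at 1 RPKM or more in at least 2 libraries, and 29 of the 46 genes met this through fMaSC alone, so those 29 had to differ. The 3 comparisons below share the fMaSC libraries.

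Between fMaSC and basal cells, 45 of 46 genes were called higher in fMaSC and 0 lower, where 36.9% of the 12553 genes tested were called higher and 23.4% lower (60.3% either way). The median difference of the 46 genes was 3.80 on the log2 scale and that of all genes tested was 0.27. Against progenitors, 44 were called higher and 0 lower, beside 35.5% and 15.0% of all genes (50.6% either way). Against mature luminal cells, 43 were called higher and 1 lower, beside 41.7% and 14.7% (56.4% either way). The medians in these last comparisons were 3.95 and 3.83 for the set, and 0.39 and 0.53 for all genes. With a pseudocount of 0.1 in place of 1 the 3 medians of the set were 5.54, 5.93 and 6.20, and those of all genes 0.37, 0.49 and 0.67, so their size depends on the pseudocount. Relative to the median of all genes the set was at 3.52, 3.55 and 3.30 in the 3 comparisons, and at 3.49, 3.60 and 3.42 with quantile scaling, which brought the medians of all genes to between -0.04 and 0. Of the 17 genes that met the filter without fMaSC, 16 were called higher against basal cells, 15 against progenitors, and 14 against mature luminal cells with 1 lower. Of all 11596 genes that did so, 33.5%, 31.8% and 38.3% were called higher and 25.4%, 16.3% and 15.9% lower. The counts by role below include genes that met the filter through fMaSC alone and are descriptions.

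**Figure D2:**
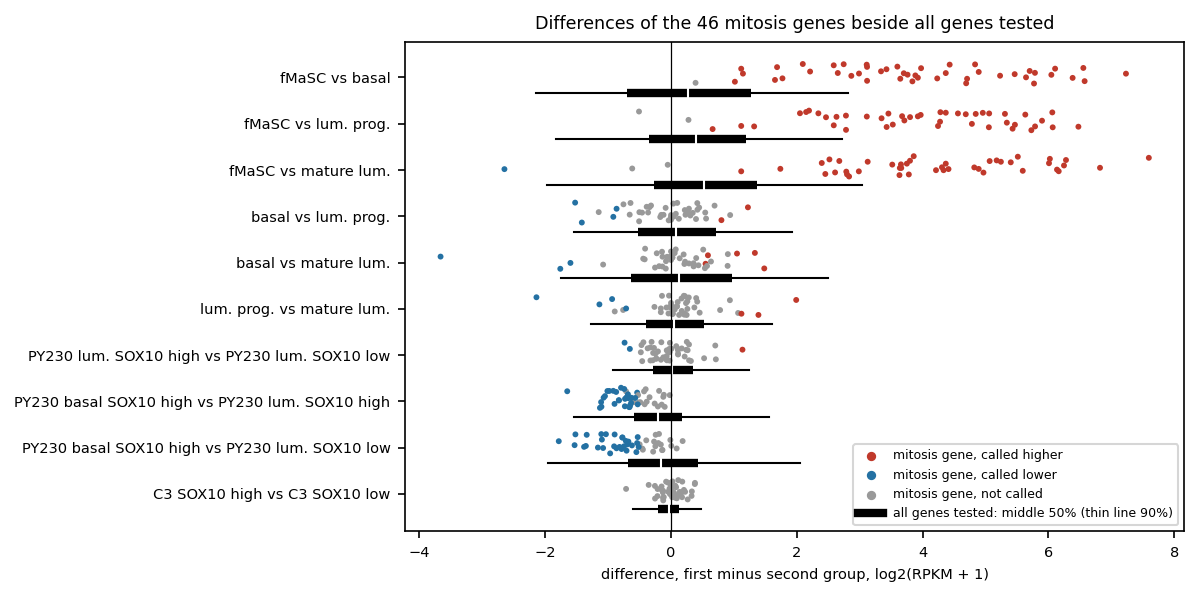
Difference of each mitosis gene in 10 comparisons (points, first minus second group, log2(RPKM + 1), red for called higher, blue for called lower, grey for not called) with the middle 50% and 90% of all genes tested below each row (thick and thin black bars). Points in the 3 fMaSC rows lie mostly above 1, those in the PY230 basal rows mostly below 0, and those in the C3-1-TAg row around 0 with none called.

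Among the cyclins and entry kinases all 8 genes were called higher in fMaSC in each of the 3 comparisons, 4 of them tested through fMaSC alone. Cdk1, the kinase that drives entry into mitosis, was at 106 and 106 RPKM in the fMaSC libraries, 0.494 and 0.0943 in basal cells, 1.25 and 1.59 in progenitors, and 0.744 and 0.134 in mature luminal cells. All 6 adult libraries lay below the fetal ones, and the difference from basal cells was 6.38 ± 0.29 (SE; limma, adjusted p = 1.84e-05). Ccnb1 and Ccnb2 encode the B-type cyclins that activate CDK1. Ccnb1 was at 66.5 and 63.2 RPKM in fMaSC and at 0 to 0.423 in the 6 adult libraries, and Ccnb2 at 130 and 121 against 0.0996 to 2.39. Plk1, a kinase of spindle and centrosome, was at 19.3 and 20.3 RPKM in fMaSC and at 0.778 or less in adults.
Ccna2, whose cyclin A works from DNA replication to early mitosis, was at 96.4 and 93.2 RPKM in fMaSC and at 0.809 to 2.59 in adults. Cdc25c, the phosphatase that switches CDK1 on, was at 18.1 and 21.3 RPKM in fMaSC and was listed at 0 in all 6 adult libraries. Cks2, a small CDK1-binding subunit, differed less: it was at 14.7 and 13.2 RPKM in fMaSC and 5.91 and 2.26 in basal cells, a difference of 1.65 ± 0.39 (limma, adjusted p = 0.00803).

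The Aurora kinases and chromosomal passenger proteins, which correct faulty attachments of chromosomes, were called higher in fMaSC for 5 of 5 genes in each comparison, all but Aurka tested through fMaSC alone. Aurkb, the passenger kinase, was at 97.2 and 91.6 RPKM in fMaSC, listed at 0 in both basal libraries, and at 0.171 to 0.544 in the 4 luminal ones. Cdca8, the borealin subunit, was at 104 and 94.6 RPKM against at most 1.01. Birc5, which encodes survivin, was at 12.6 and 12.8 RPKM against at most 0.736. Aurka, the kinase of the spindle poles, was at 49.7 and 50.2 RPKM in fMaSC, and it was the gene of this role with the highest adult level, 7.44 and 5.08 RPKM in mature luminal cells.

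The spindle checkpoint delays anaphase until each chromosome is attached, and its genes did not behave alike. Bub1, a checkpoint kinase, was at 14.4 and 14.0 RPKM in fMaSC and at 0.220 or less in every adult library. Bub1b was at 28.6 and 27.5 RPKM against 0.0573 to 1.20. Bub3, the partner of both, was at 133 and 130 RPKM in fMaSC and at 31.8 to 53.2 in adults, so that every adult library held the gene, and the difference from basal cells was 1.69 ± 0.21 (limma, adjusted p = 0.000523).
Mad2l1 encodes MAD2, the protein that binds CDC20 and holds the anaphase-promoting complex back, and its order across the groups was another one. It was at 86.8 and 86.4 RPKM in fMaSC, 53.4 and 33.5 in basal cells, 127 and 120 in progenitors, and 550 and 546 in mature luminal cells. None of the 4 groups overlapped, and in mature luminal cells the gene ranked 138 among all genes by mean RPKM. It was called higher in fMaSC than in basal cells (1.02 ± 0.23, limma, adjusted p = 0.00695) and lower than in mature luminal cells (-2.65 ± 0.23, limma, adjusted p = 9.29e-05). Against progenitors the value was -0.51 ± 0.23 (limma, adjusted p = 0.101), and with quantile or median-of-ratios scaling it was called lower, at -0.86 (adjusted p = 0.0157) and -0.93 (adjusted p = 0.00983). Its promoter stretch above has neither motif. Ndc80 and Nuf2 had neither as well, whereas Bub3 had both, and a relation of motifs to adult levels was not tested.

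Anaphase genes held the largest difference of the set. Ube2c, the ubiquitin-conjugating enzyme that works with the anaphase-promoting complex, was at 220 and 209 RPKM in fMaSC, 0.728 and 0.186 in basal cells, 1.13 and 1.74 in progenitors, and 0.149 and 0.0772 in mature luminal cells. Its log2 differences from the 3 adult groups were 7.23, 6.48 and 7.60. Cdc20, the activator of the complex, was at 86.1 and 88.6 RPKM in fMaSC and at 0 to 3.07 in adults. Espl1, the separase that cuts cohesin, was low even in fMaSC, at 1.12 and 1.22 RPKM, and was listed at 0 in all 6 adult libraries.
Pttg1 encodes securin, the inhibitor of separase, and it was present in every normal library, at 21.8 and 20.1 RPKM in fMaSC, 18.0 and 13.7 in basal cells, 11.9 and 13.9 in progenitors, and 22.1 and 21.4 in mature luminal cells. The fetal and mature luminal values overlapped (-0.05 ± 0.21, limma, adjusted p = 0.845). The difference from basal cells was 0.39 ± 0.21 (limma, adjusted p = 0.138), and the call against progenitors (0.66, adjusted p = 0.0304) was lost with quantile scaling (0.24, adjusted p = 0.371) and median-of-ratios scaling (0.26, adjusted p = 0.332). With quantile scaling Pttg1 was called lower in fMaSC than in mature luminal cells (-0.62, adjusted p = 0.0388).

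All 5 kinetochore genes and all 7 kinesins were called higher in fMaSC than in each adult group, but only Cenpa among them met the filter without fMaSC, so the others had to differ. Cenpa, the histone that marks centromeres, was at 157 and 138 RPKM in fMaSC and at 0.398 to 5.45 in adults. Cenpf, of the outer kinetochore, was at 6.61 and 5.99 RPKM against at most 0.126, and Ndc80, which grips microtubules, at 20.0 and 20.6 against at most 0.830. Kif11, the motor that pushes spindle poles apart, was at 33.2 and 43.2 RPKM against at most 0.50, and Kif23, the motor of the central spindle, at 12.1 and 9.96 against at most 0.427. The spindle genes showed the same order: Tpx2, which activates Aurora A, was at 43.5 and 45.6 RPKM in fMaSC and at most 1.61 in adults, and Hmmr at 40.6 and 45.8 against at most 0.240.

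Cytokinesis genes, which build the midzone and cleavage ring, were called higher for 4 of 4 against basal cells and 3 of 4 against each luminal group, with 2 of the 4 (Prc1 and Anln) meeting the filter without fMaSC. Prc1, which bundles midzone microtubules, was at 34.9 and 39.0 RPKM in fMaSC, 2.71 and 1.10 in basal cells, 6.73 and 6.21 in progenitors, and 1.03 and 0.742 in mature luminal cells. Anln encodes anillin, a scaffold of the cleavage ring, and was the exception. It was at 6.61 and 8.40 RPKM in fMaSC, 3.46 and 2.29 in basal cells, 6.25 and 5.72 in progenitors, and 10.1 and 14.1 in mature luminal cells. The mature luminal values were the highest, and the difference from fMaSC was -0.62 ± 0.27 (limma, adjusted p = 0.0875), which became -1.21 with quantile scaling (adjusted p = 0.00535) and -1.08 with median-of-ratios scaling (adjusted p = 0.0106). Against progenitors Anln was at 0.28 (limma, adjusted p = 0.421), and its sign turned with those scalings, to -0.20 and -0.09, without a call.
Top2a, which untangles DNA before chromosomes part, was at 63.2 and 59.2 RPKM in fMaSC and at 0.524 to 1.36 in adults. Mki67, the Ki-67 protein used to count dividing cells, was at 37.1 and 38.9 RPKM against 0.314 to 2.99. Foxm1, a transcription factor of late cell cycle genes, was at 7.25 and 6.93 RPKM against 0.0459 to 1.70.

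**Figure D3:**
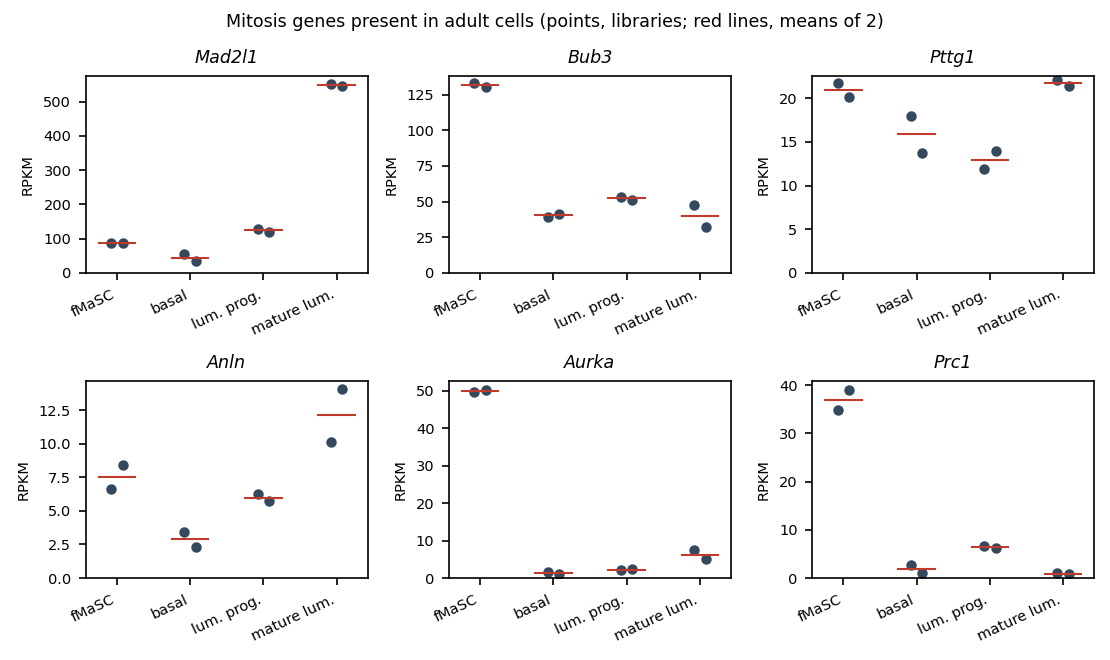
RPKM of 6 mitosis genes in the 8 normal libraries (points) with the mean of each group of 2 (red lines), each axis starting at 0. Mad2l1 is highest in mature luminal cells (550 and 546 RPKM), Anln too (10.1 and 14.1), Pttg1 is at 11.9 to 22.1 throughout, while Bub3, Aurka and Prc1 are highest in fMaSC and remain above 0 in adults.

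Related lists were counted beside the shares of all genes given above (36.9%, 35.5% and 41.7% higher). Of 77 other mitosis genes tested, 60 were called higher in fMaSC and 2 lower against basal cells, 62 and 1 against progenitors, and 61 and 1 against mature luminal cells. Of these 77, 32 met the filter through fMaSC alone, and of the other 45 the counts were 28 and 2, 30 and 1, and 29 and 1. Spc24, a kinetochore subunit, was at 88.5 ± 5.82 RPKM (SD, n = 2) in fMaSC and 0.693 ± 0.822 in basal cells. All 18 S phase genes, of which 14 met the filter without fMaSC, were called higher in fMaSC in each of the 3 comparisons, among them Mcm5, of the replicative helicase, at 61.3 ± 0.981 RPKM in fMaSC and 1.79 ± 0.0809 in basal cells. Red cell genes moved with the fetal group: their sum was 195 to 269 RPKM in fMaSC and at most 9.40 in adults, with 1 of 5 genes at 1 RPKM or more in both fMaSC libraries. Fibroblast markers summed to 108 to 125 RPKM in fMaSC, 54.5 to 55.6 in basal cells and 6.47 to 25.2 in the luminal groups, with 5, 3 and 1 to 3 of 5 markers at 1 RPKM or more in both libraries. Mature luminal markers summed to 66.4 to 68.7 RPKM in fMaSC, 815 to 1034 in basal cells, 592 to 789 in progenitors and 4878 to 5022 in mature luminal cells. The part of these cells in the result was not tested.

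Among the adult populations the set was mostly near 0, and few genes were called. Between basal cells and progenitors, 2 of 46 were called higher and 4 lower in basal cells (21.0% and 14.5% of all genes), with a median of 0.00 for the set and 0.08 for all genes. Between basal and mature luminal cells, 5 were called higher and 3 lower (28.8% and 19.8%, or 48.6% either way), and between progenitors and mature luminal cells 3 and 4 (13.4% and 8.63%). None of these shares of the 46 genes was clearly above the background of all genes. Most of the set was under 1 RPKM in both groups. The shares include the 29 genes that met the filter through fMaSC alone and so were low in adults. Of the 17 others, 2 were called higher and 4 lower, 3 and 3, and 3 and 4, in the same order. Over all genes tested, 35.5%, 48.6% and 22.1% were called either way. The background of genes that met the filter without fMaSC was not counted here, so the counts of the 17 have no matching share beside them.

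The genes called among adults were few and individual. Mki67 was higher in basal cells (2.71 and 2.99 RPKM) than in progenitors (0.747 and 0.559) and mature luminal cells (0.314 and 0.445), by 1.22 ± 0.21 (limma, adjusted p = 0.00480) and 1.48 ± 0.21 (limma, adjusted p = 0.00146). Prc1 was higher in progenitors than in basal cells (basal minus progenitor -1.42, adjusted p = 0.0112) and in mature luminal cells (1.99, adjusted p = 0.00495). Aurka was lower in basal cells and progenitors than in mature luminal cells, at -1.60 and -1.14 (limma, adjusted p = 0.00222 and 0.0194).
Mad2l1 was lower in basal cells than in progenitors (-1.52, limma, adjusted p = 0.00286), and lower in progenitors than in mature luminal cells (-2.14, adjusted p = 0.00147). The other genes called were Bub1b (higher in basal cells than in progenitors, and higher in mature luminal cells than in progenitors), Cdk1 and Anln (lower in basal cells than in progenitors), Anln also lower than in mature luminal cells, Cks2, Ccnb2, Nek2 and Birc5 (higher in basal than in mature luminal cells), Ccnb2 and Ube2c (higher in progenitors than in mature luminal cells) and Pttg1 (lower). Several of these rest on levels under 2 RPKM in both groups. These counts moved between 2 and 11 when single libraries were left out. Without basal replicate 1, 10 genes were called between basal cells and progenitors, and without either basal replicate 11 between progenitors and mature luminal cells. Without progenitor replicate 2, 3 genes were called in the first of these, and without either progenitor library or mature luminal replicate 1, 2 in the second. Between basal and mature luminal cells, 4 were called without either mature luminal library.

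The PY230 comparisons asked how tumour cells sorted by SOX10 level and by luminal or basal type differ. The 46 genes summed to 843 ± 99.8 RPKM (SD, n = 2) in SOX10-high luminal cells, 858 ± 86.6 in SOX10-low luminal cells and 502 ± 51.9 in SOX10-high basal cells. All genes were at 1 RPKM or more in all PY230 libraries except Ccnb1, which was at 0.959 RPKM in basal library 1.

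Between SOX10-high and SOX10-low luminal cells, 1 of 46 genes was called higher and 2 lower in SOX10-high cells, beside 12.6% and 10.0% of 13136 genes, and the median of the set was -0.07 (0.01 for all genes). Spag5, which encodes astrin, a spindle and kinetochore protein, was at 39.8 and 30.1 RPKM in SOX10-high luminal cells, 14.3 and 16.2 in SOX10-low luminal cells and 10.3 and 10.4 in basal cells. The 3 groups did not overlap for it, the luminal difference was 1.14 ± 0.16 (limma, adjusted p = 0.00824), and basal minus SOX10-high luminal cells was -1.65 ± 0.16 (limma, adjusted p = 0.000503). Anln was lower in SOX10-high luminal cells (9.81 and 13.4 against 19.5 and 20.2 RPKM, -0.74 ± 0.17, limma, adjusted p = 0.0259), and so was Aurka (13.2 and 15.3 against 23.8 and 22.1 RPKM, -0.65 ± 0.17, limma, adjusted p = 0.0387). The Anln and Aurka calls were lost without SOX10-high replicate 1 and without either SOX10-low replicate, when 1 gene remained called, and 6 genes were called without SOX10-high replicate 2.

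Basal cells held less of the set than either luminal group. Against SOX10-high luminal cells, 28 of 46 genes were called lower and 0 higher, beside 28.2% and 13.8% of all genes (42.0% either way), and all 46 differences were below 0 with a median of -0.65 (-0.21 for all genes). Against SOX10-low luminal cells, 29 were called lower and 0 higher, beside 33.4% and 21.8% (55.2% either way), with a median of -0.69 (-0.16 for all genes). Both comparisons share the basal libraries. Relative to the median of all genes the set was at -0.44 against SOX10-high luminal cells as deposited, -0.42 with quantile scaling and -0.44 with median-of-ratios scaling. Against SOX10-low luminal cells the same values were -0.52, -0.50 and -0.53. Those 2 scalings called 20 and 19 genes lower in the first comparison, and 25 and 25 lower with 1 and 0 higher in the second. The shares of all genes called were not counted with these scalings or without single libraries. These counts therefore have no background beside them.
The count against SOX10-high luminal cells rested on single libraries: it was 12 without basal replicate 1, the library with the lowest value of the table for 37 of the 46 genes, and 17 without SOX10-high luminal replicate 1. Against SOX10-low luminal cells it was 19 without SOX10-low luminal replicate 2.

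By role, the 4 spindle genes were all called lower in basal cells in both comparisons, and cytokinesis genes for 3 of 4 and 4 of 4. Nusap1, a microtubule bundler, was at 3.93 and 4.14 RPKM in basal cells, 9.42 and 9.75 in SOX10-high luminal cells and 9.64 and 9.93 in SOX10-low luminal cells. The basal values lay under all luminal ones, with differences of -1.07 ± 0.13 and -1.10 ± 0.13 (limma, adjusted p = 0.00112 and 0.000574). Racgap1, a regulator of the cleavage furrow, was at 7.20 and 8.68 RPKM in basal cells against 15.5 to 24.8 in the 4 luminal libraries, and Prc1 at 10.1 and 10.8 against 20.5 to 27.4.
Aurka was at 5.05 and 6.98 RPKM in basal cells and so lower than in both luminal groups, at -1.13 ± 0.17 and -1.78 ± 0.17 (limma, adjusted p = 0.00278 and 0.000250). Cdca3, a trigger of mitotic entry, was at 16.7 and 19.3 RPKM in basal cells against 37.3 to 50.9, and Cdca8 at 9.12 and 9.70 against 18.2 to 28.1. Ccnb2 was at 11.4 and 19.7 RPKM against 31.1 to 49.3, Cdk1 at 18.0 and 20.6 against 27.1 to 35.1, and Top2a at 18.4 and 18.1 against 30.4 to 41.5. In each of these genes the basal libraries stayed below every luminal library.

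The spindle checkpoint had 1 of 5 genes called lower against SOX10-high and 2 of 5 against SOX10-low luminal cells, and the kinetochore genes 2 of 5 in both. Bub3 was at 29.4 and 29.0 RPKM in basal cells and 31.6 to 36.4 in luminal cells, a difference from SOX10-high cells of -0.21 ± 0.12 (limma, adjusted p = 0.219). Bub1 was at 2.67 and 5.18 RPKM in basal cells against 3.76 to 4.58, with overlapping groups (-0.11 ± 0.26, limma, adjusted p = 0.750). Nuf2, the partner of Ndc80, was at 6.61 and 9.19 RPKM against 7.16 to 8.36 (-0.02 ± 0.18 from SOX10-high cells, limma, adjusted p = 0.938). Pttg1 was at 18.2 and 22.5 RPKM against 22.5 and 21.1 in SOX10-high cells (-0.10 ± 0.15, limma, adjusted p = 0.615), and it was called lower only against SOX10-low cells (28.0 and 31.9 RPKM, -0.54 ± 0.15, adjusted p = 0.0197). Whether the roles differ from each other was not tested.

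**Figure D4:**
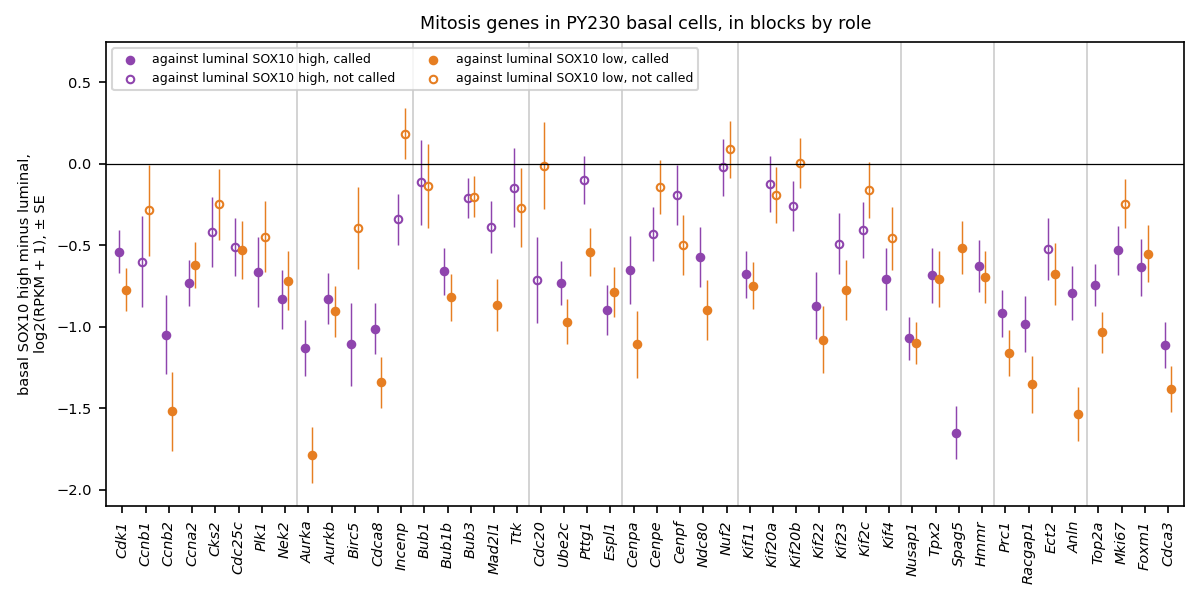
Difference of each mitosis gene between PY230 basal SOX10-high cells and each luminal group (purple, SOX10-high luminal, orange, SOX10-low luminal), in log2(RPKM + 1) with SE from limma, filled where called. Nearly all points lie below 0, with Spag5 lowest against SOX10-high cells (-1.65) and Aurka against SOX10-low cells (-1.78), and the checkpoint genes Bub1, Bub3 and Ttk are open points near 0.

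Of the 80 other mitosis genes, 30 were called lower and 0 higher in basal cells than in SOX10-high luminal cells, and 28 lower and 4 higher than in SOX10-low luminal cells. As shares of all genes tested, 28.2% were called lower in the first and 33.4% in the second, and the count of 28 is near the latter. Pkmyt1, a kinase that inhibits CDK1, was at 7.13 ± 1.18 RPKM (SD, n = 2) in basal cells, 15.9 ± 0.281 in SOX10-high and 21.1 ± 2.11 in SOX10-low luminal cells. The 11 genes of the anaphase-promoting complex had medians of 0.02 and -0.00, with 1 gene called lower in each comparison and 0 and 3 called higher. Of 18 S phase genes, 13 and 9 were called lower and 0 higher, beside the same shares of all genes, among them Mcm6, a helicase subunit, at 26.2 ± 3.15 RPKM in basal cells against 70.1 ± 4.22 and 91.4 ± 5.66. Fibroblast markers moved with the basal group, at 92.1 to 148 RPKM in sum against 23.7 to 71.9 in luminal cells, with all 5 at 1 RPKM or more in both basal libraries, and their part in the result was not tested. The 6 basal markers summed to 2349 to 2700 RPKM in basal cells and 28.1 to 90.6 in luminal cells. The 5 luminal markers summed to 349 to 534 RPKM in basal, 3831 to 5035 in SOX10-high luminal and 9244 to 9775 in SOX10-low luminal cells. The 5 luminal progenitor markers stood at 95.7 to 116, 834 to 1828 and 143 to 148 RPKM in the same order, and the 5 mature luminal markers at 44.9 to 74.0, 332 to 590 and 1271 to 1672. The part of these marker differences in the mitosis results was not tested.

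The last comparison set SOX10-high against SOX10-low cells of C3-1-TAg tumours. Of the 46 genes 0 were called by limma in either direction, beside 0.0418% of 11948 genes called higher and 0.0% called lower. Without any 1 of the 9 libraries the count called was also 0. Of the 46, 0 had an unadjusted p under 0.05 by limma or by the exact permutation test. Over all genes tested 365 of 11948 did by limma, so 0 of 46 is no result about the set. The smallest two-sided p of the exact permutation test over 126 splits was 0.206, where the smallest possible is 0.0159. The libraries of the 2 groups overlapped for all 46 genes, where 1.06% of all genes tested did not overlap, so the overlap is no result about the set. The median difference was 0.02 (-0.04 for all genes). Of 80 other mitosis genes and 18 S phase genes, 0 were called by limma. By limma 1 and 0 had an unadjusted p under 0.05, beside the 365 of 11948 over all genes.

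The spread within the groups was wide. The set summed to 1394 ± 411 RPKM in SOX10-high cells (SD, n = 5) and 1378 ± 122 in SOX10-low cells (SD, n = 4). SOX10-high libraries 1 to 5 held 1188, 1579, 921, 1288 and 1996 RPKM, and SOX10-low libraries 1 to 4 held 1520, 1253, 1434 and 1304 RPKM. SOX10-high library 5 had the highest value of all 9 libraries for 35 of the 46 genes, and SOX10-high library 3 the lowest for 30, so that the extremes lay within 1 fraction. Between those 2 libraries the median difference over the set was 1.20 on the log2 scale.
For Kif20a, the motor of the central spindle, SOX10-high libraries 1 to 5 were at 16.0, 26.7, 13.5, 24.7 and 50.7 RPKM and SOX10-low libraries 1 to 4 at 26.8, 16.6, 26.8 and 23.3, with a difference of 0.04 ± 0.34 (limma, adjusted p = 1.00). Ube2c was at 65.9, 50.2, 36.6, 50.9 and 125 RPKM against 91.8, 64.3, 49.2 and 61.4, a difference of -0.12 ± 0.33 (limma, adjusted p = 1.00). The largest differences were -0.71 ± 0.47 for Foxm1, 0.38 ± 0.24 for Nek2 and 0.38 ± 0.24 for Ect2, each with an adjusted p of 1.00 by limma.

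The alike pairs of libraries across the fractions were alike for the set too. Between SOX10-high library 1 and SOX10-low library 2 the median absolute log2 difference over the 46 genes was 0.0865. Between SOX10-high library 2 and SOX10-low library 3 it was 0.125. Pairs within the SOX10-high fraction ranged from 0.371 to 1.20 and pairs within the SOX10-low fraction from 0.233 to 0.479. SOX10-high library 4 was also close to SOX10-low libraries 4 (0.176) and 1 (0.188), with correlations over all genes of -0.04 and -0.02. Small differences over the set were thus not particular to the alike pairs. Anln was at 29.0 and 33.9 RPKM in the first alike pair and at 118 and 91.7 in the second. The labels do not say whether such libraries come from 1 tumour.

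Across the 9 libraries most of the genes correlated with the rest of the set. The share of all genes with such a correlation was not counted. The alike pairs of libraries described above enter as separate libraries. As a description over 9 libraries of 1 table and processing, the correlation of a gene with the median of the other 45, on the log2 scale, ranged from 0.12 to 0.96 with a median of 0.72, and it was above 0.5 for 38 genes. It was highest for Kif20a (0.96), Ccnb1 (0.93) and Cenpf (0.92) and lowest for Birc5 (0.12), Top2a (0.19) and Foxm1 (0.32). Among 11776 genes outside the lists the highest values were for Rbmx (0.92), Bmi1 (0.90), Lcorl (0.90), Zfp639 (0.89) and Gm5577 (0.88).

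Foxm1 stood out in 1 library. It was at 189 RPKM in SOX10-low library 1 and at 24.8 to 45.9 in the other 8, or 5.73 times their median. Several genes next to Foxm1 in the RefSeq order, chosen after the Foxm1 value was seen, were high in the same library. Rhno1 was at 125 RPKM there, 7.08 times the median of the other 8 libraries, Tulp3 at 37.1 (5.04 times), Itfg2 at 42.3 (5.71 times) and Fkbp4 at 249 (4.15 times). Tspan9, 5 genes away, was at 37.6 RPKM there (3.70 times) and at 8.18 to 22.5 in the other 8. Tead4, 3 genes away, was at 1.41 times and Gm10069, 4 genes away on the other side, at 0.926 times. This is the library with 1082 RPKM of immune markers, and a relation of those to Foxm1 was not tested. Of the other genes of the set, Bub3 and Pttg1 were also highest there, at 41.8 and 46.6 RPKM against at most 39.1 and 42.9 in the other 8, while Ccna2 and Ect2 were lowest there. The rest lay within the range of the other libraries, and for example Ccnb1, Plk1 and Cenpf were at 7.83, 17.6 and 10.5 RPKM against 5.04 to 18.6, 7.50 to 23.3 and 6.90 to 20.5 in the other 8.

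**Figure D5:**
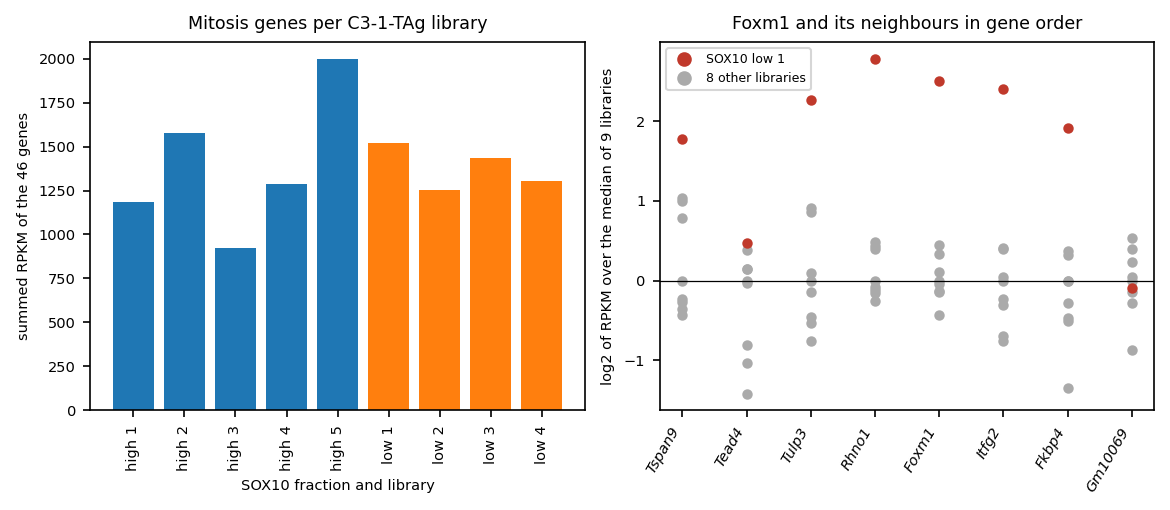
Left, summed RPKM of the 46 mitosis genes in each C3-1-TAg library (blue, SOX10-high, orange, SOX10-low), from 921 to 1996. Right, log2 ratio of Foxm1 and its neighbours in gene order to the median of the 9 libraries, with SOX10-low library 1 in red, which is highest for Foxm1 and 6 of the 7 neighbours shown and not for Gm10069.

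The order of the genes by level differed between the tables, and whether the separate making of the tables bears on that was not tested. Ccnb2 was 1.96 and 1.91 times Ccnb1 within the fMaSC libraries, 8.65 to 27.5 times within the 6 PY230 libraries and 2.20 to 7.04 times within the 9 C3-1-TAg libraries. Ccnb1 ranked 13 of 46 in both fMaSC libraries and 39 to 46 in the tumour libraries. Birc5 was 0.119 and 0.120 times Cdk1 in fMaSC, 1.25 to 3.24 times in PY230 cells and 0.816 to 1.91 times in C3-1-TAg cells. Ccnb1 has a processed copy annotated as Ccnb1-ps, and whether reads were split between them was not tested. Of the 46 genes, 26 overlap another annotated gene in GENCODE, 19 of them on the other strand. The library protocol does not mark strand, so strand cannot assign reads in the stretch that such a pair shares. How much of each gene lies in a shared stretch was not counted.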

How the data were processed

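The deposited values were RPKM per gene in 3 tables, made by the authors with FastQC, HISAT2 2.0.5 and StringTie 1.3.1c on mm9, per the submitters' processing notes. Gene annotation and read totals: not given in the sources used here. In the C3-1-TAg table the lowest value above 0 was 2.001 and a constant of 2 was taken off values above 0. That step rests on the values alone. Tests used limma 3.58.1 in R 4.3.3 on log2(RPKM + 1), with an intensity trend and all groups of a table in 1 fit, for genes at 1 RPKM or more in at least 2 libraries (4 for C3-1-TAg). P-values were adjusted by Benjamini-Hochberg over all genes tested. The scripts were tested on simulated data. Single C3-1-TAg genes also had an exact two-sided permutation test. Alternatives were pseudocount 0.1, no filter, 2 other scalings, no trend, a replicate block, only the 2 groups compared, and single libraries left out. Named genes were 24 heads of roles, the 5 largest and 5 smallest differences of each comparison, genes called against the majority, and up to 3 genes of each related list. The members and lists were chosen with earlier results of these data known. Replicate numbers were not taken to pair the samples. Correlations of group-centred values between same-numbered libraries were -0.34, -0.33, -0.07 and 0.20 for C3-1-TAg. With 2 pairs in each comparison, too few to decide, they were -0.26, 0.30 and -0.20 for PY230 and 0.00, 0.00, 0.01, 0.11, 0.22 and 0.07 for normal cells, in the order of the comparisons.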

Additional observations from a re-analysis of the deposited data

Results flagged for a closer look

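Within the C3-1-TAg groups, 92 sets of values (46 genes in 2 groups) were examined for a library far from the others of its group, and 4 were found, where chance marks about 1 in 20 groups. Anln was at 118 RPKM in SOX10-high library 2, and the other 4 libraries of that fraction were at 29.0 to 52.0. Foxm1 was at 189 RPKM in SOX10-low library 1, and the other 3 were at 32.6 to 42.3. Cdc25c was at 6.13 RPKM in SOX10-low library 2 against 11.1 to 11.7, and Bub1b was at 22.8 RPKM in the same library against 13.9 to 15.2.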

How the results depend on the processing

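No called result turned its direction under any alternative run, while 175 of 4349 single-gene values, called in neither fit, changed sign. Called fMaSC counts were 41 to 46 in every alternative except the leave-one-out fits below. With only the 2 groups compared, fewer genes of the set met the filter in the adult comparisons, so these counts are not out of 46. Of 16 tested, 2 were called between basal cells and progenitors, and of 13 tested, 5 between basal and mature luminal cells. Between progenitors and mature luminal cells 9 of 14 tested were called. With no filter, 4 of 46 were called between basal and mature luminal cells, fewer than in the main fit. More were called between the PY230 luminal groups with quantile scaling, 5 against 3. Leaving out single libraries gave 22 to 46, 21 to 45 and 22 to 45 genes for fMaSC against basal, luminal progenitor and mature luminal cells. The low ends were without either fMaSC library, when only 24 genes met the filter. With no filter as well, an alternative chosen after seeing the data, 41 to 44 were called, and the adult comparisons gave 3, 5 and 1. The adult ranges were 3 to 10, 4 to 11 and 2 to 11, the PY230 ranges 1 to 6, 12 to 29 and 19 to 30, and C3-1-TAg 0 to 0. The low end of the last adult range was also reached without either fMaSC library. With 1 library left in a group, limma assumes that it varies like the other groups. The replicate block gave 45, 44, 44, 6, 6, 7, 3, 26, 28 and 0 in the order of the report. For PY230 the pairing with the SOX10-low numbers crossed, chosen after seeing the data, gave 4, 30 and 31. The median-of-ratios scaling tested 45 of the genes in normal cells. Depth is unknown, so no limit for genes listed at 0 can be given, and 2 libraries a group limit the precision of normal and PY230 values.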

Other observations

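Genes next to Anln in the RefSeq order included 9530077C05Rik, 1 gene away and named after its values were seen. It was at 0.688 and 0.529 RPKM in fMaSC, 5.28 and 2.42 in basal cells and 3.96 and 1.67 in progenitors. In mature luminal cells it was at 9.19 and 12.3 RPKM, where Anln was at 10.1 and 14.1. Other neighbours had other orders. Rp9, 2 genes away, was at 38.6 and 36.5 RPKM in fMaSC and 23.0 and 17.2 in mature luminal cells. By motif class, the difference between fMaSC and basal cells had a median of 4.53 over the 16 genes with both promoter motifs, 3.86 over the 14 with a CCAAT box alone, 2.93 over the 2 with a CHR alone (Birc5 and Kif2c) and 2.59 over the 7 with neither. The corresponding medians between PY230 basal and SOX10-high luminal cells were -0.67, -0.68, -0.75 and -0.39. These medians are descriptions, with ranges that overlap: 1.12 to 7.23 for both motifs and 0.39 to 4.69 for neither in fMaSC against basal cells.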
